A study of Drosophila melanogaster with 2 samples.

Results

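Of the 4278 reproducible CG2875-GFP binding peaks on the dm6 assembly, 1058 (24.7%, exact binomial 95% interval 23.4 to 26.1%) lay at one-directional coding promoters. A peak was placed here when its summit lay within 500 bp of the transcription start site (TSS) of a protein-coding gene, and when that nearest TSS had no coding TSS of another gene on the opposite strand within 1000 bp upstream. Promoters that do have such a partner are called head-to-head below, and they held 584 peaks. The other 2636 peaks lay more than 500 bp from every coding TSS. The 1058 members named 930 genes through 1002 distinct TSSs, and no summit was equally near to TSSs of both kinds. Of the members, 10 (0.945%) also had a head-to-head TSS within 500 bp, and 26 were equally near to TSSs of more than 1 gene.

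The measurements come from ChIP-seq of 2 biological replicates, made from whole Drosophila melanogaster embryos of mixed sex, collected 0 to 14 h after laying. All embryos carried a transgene that encodes CG2875 with GFP at its C terminus, and the tag was immunoprecipitated with an antibody against GFP. There was 1 group and no second genotype, stage or treatment, so every comparison below is between kinds of promoter within the same libraries. Whole embryos mix all tissues of this period, and a peak does not show in which cells the protein was bound. The labels do not say how the fusion is driven. The control alignment that both replicates shared is not analysed here, and nothing in the sources used here says that the replicates came from separate crosses.

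Promoters of protein-coding genes recruit RNA polymerase II through short core elements close to the TSS, such as the TATA box, the initiator and, at ribosomal protein genes, the TCT element. In the compact fly genome many genes are arranged head to head and share one upstream region, whereas a one-directional promoter serves a single coding gene. Proteins with a broad promoter preference in flies often recognise the DRE (bound by Dref and, through its CGATA part, BEAF-32), motif 1 (bound by M1BP) or GAGA repeats (bound by GAGA factor). No site or role is assigned here to CG2875, which is known by its gene model number.

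Sequences under 8 of the strongest summits, all outside annotated exons, are given first as examples from the strong end of the set; they do not include every member of like signal. Each is the 61 bp centred on the summit, read 5′ to 3′ on the strand of the gene's transcription, from the Release 6 genome sequence. Capitals mark any of the 5 motifs or 10 words of 8 letters with the largest excess in share over unbound promoters, described with the motif results.
CG14100 (chr3L:19590586-19590646, minus strand): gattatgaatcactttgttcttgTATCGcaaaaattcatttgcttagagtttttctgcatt
CG18549 (chr3R:12449144-12449204, plus strand): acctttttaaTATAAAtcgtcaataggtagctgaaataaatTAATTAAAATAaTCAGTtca
ph-p (chrX:2137303-2137363, minus strand): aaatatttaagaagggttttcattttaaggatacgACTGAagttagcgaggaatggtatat
RluA-1 (chr2L:10474486-10474546, minus strand): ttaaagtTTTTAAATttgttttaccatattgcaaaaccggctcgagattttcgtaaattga
CG31145 (chr3R:23669824-23669884, minus strand): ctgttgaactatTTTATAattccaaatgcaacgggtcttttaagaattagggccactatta
E23 (chr2L:3355023-3355083, minus strand): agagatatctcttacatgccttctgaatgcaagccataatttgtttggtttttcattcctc
CG1635 (chr3R:31588517-31588577, plus strand): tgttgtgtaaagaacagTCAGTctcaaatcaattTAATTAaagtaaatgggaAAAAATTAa
gish (chr3R:16280688-16280748, plus strand): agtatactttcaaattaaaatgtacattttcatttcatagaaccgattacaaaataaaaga
These 8 windows share no marked element: the TATA box letters stand in CG18549 and CG31145, the BEAF site in CG14100 alone, and neither E23 nor gish holds any marked letters.

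Signal is the peak caller's own enrichment measure, so it is compared only within one list. At one-directional promoters it ran from 119.8 to 2107 in the reproducible list, which the authors cut by IDR (irreproducible discovery rate, a score of how well peak ranks hold between replicates), with a median of 198 and quartiles of 146 and 324. The median was 192 at head-to-head promoters and 184 at the remaining peaks. The ratio of the member median to the head-to-head median was 1.03 in the IDR list, and for the overlapping peaks of the replicates it was 1.03 in replicate 1 and 1.04 in replicate 2. This small difference changed side with the definition: the ratio was 0.965 when summits had to lie within 250 bp of a TSS and 0.964 when head-to-head meant a partner within 500 bp. Of the members, 326 (30.8%, 28.0 to 33.7%) belonged to the strongest 1069 IDR peaks, as did 160 head-to-head peaks (27.4%, 23.8 to 31.2%) and 583 other peaks (22.1%, 20.5 to 23.8%).

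The strongest member lay 193 bp upstream of px (plexus), a gene known from wing vein patterning, with a signal of 2107 in the IDR list, 989 in replicate 1 and 1130 in replicate 2. CG14100 followed with 1891, 933 and 958 in the same order of lists, at 92 bp upstream. ph-p, which encodes a Polycomb group protein, had a signal of 1411, with 725 in replicate 1 and 739 in replicate 2, and its summit lay 478 bp upstream of the nearest TSS, in an intron of another transcript of the gene. A second ph-p member, 433 bp downstream of another TSS, had a signal of 747, with 381 in replicate 1 and 405 in replicate 2. The tandem duplicate ph-d had a weaker peak of 133 at 440 bp upstream. How reads shared by the 2 copies were placed was not tested. All 20 of the strongest members ranked among the strongest 4278 peaks of both replicate lists.

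Among these 20, the summit lay upstream in all but one. The exception was bchs (blue cheese), which encodes a large adaptor of endolysosomal traffic. Its signal was 977 and its summit lay 432 bp downstream of the TSS. CG1888 (1535), CG18549 (1526) and Tina-1 (1524) came next by signal. RluA-1, named for a pseudouridine synthase family, had 1280, Fkbp14, a prolyl isomerase gene, had 1204, and CG31145 had 1169. E23, an ABC transporter gene of the ecdysone response, had 1054, CG1635 had 1041, the casein kinase gene gish had 1010, and the mannosyltransferase gene Alg3 had 1000.01. CG13921 had 997, the small heat shock gene Hsp27 had 974, the reticulon gene Rtnl1 had 971, the receptor gene Toll-7 had 955, the phosphoserine phosphatase gene aay had 935.4, and brwl had 935.4.

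A peak overlapping reciprocally over 50% of the length was present in both relaxed replicate lists for 877 members, and over these the signals of the replicates had a Spearman correlation of 0.689 and a Pearson correlation of 0.826 on the log2 scale. These points share both libraries and the control, so the correlations are descriptions without a test. At equal list length, 744 members (70.3%, 67.5 to 73.1%) were among the strongest 4278 peaks of replicate 1 and 849 (80.2%, 77.7 to 82.6%) among those of replicate 2. Both held for 628 members (59.4%, 56.3 to 62.3%) and neither for 93 (8.79%, 7.15 to 10.7%). The share found in both was 59.2% (55.1 to 63.3%) for head-to-head peaks and 60.2% (58.3 to 62.1%) for the others. It was 69.4% in the stronger 529 members and 49.3% in the weaker 529, a difference that follows in part from the measure, since weak members lie nearer the limit of each list. With an overlap of 1 bp, 1053 members met a peak somewhere in both relaxed lists of 30000 peaks, which contain background by design. Since neighbouring IDR peaks can meet one replicate peak, 46 members shared their replicate 1 peak with another member, and 32 shared their replicate 2 peak.

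**Figure D1:**
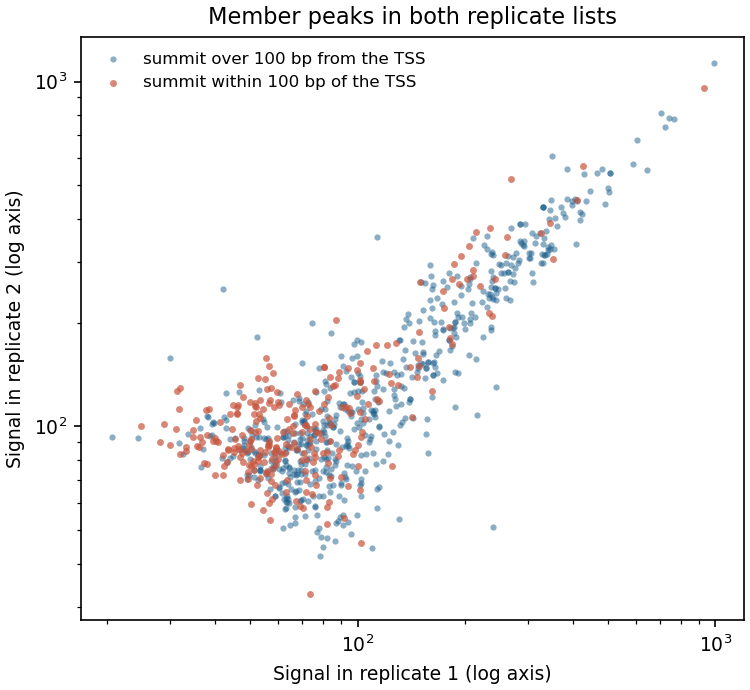
Signal of each member peak in replicate 2 against replicate 1, both on log axes, for the 877 members with an overlapping peak in both relaxed lists; colour separates summits within 100 bp of the TSS from those farther away. Strong peaks lie along a narrow band, and summits within 100 bp of the TSS lie toward the replicate 2 side of it.

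The rule limited summits to 500 bp but left their side open, and 824 members (77.9%, 75.3 to 80.4%) lay upstream of the nearest coding TSS. The median position was −153 bp, with quartiles of −274 and −22 bp, where negative values are upstream in the direction of transcription. In the strongest 4278 peaks of replicate 1, 80.1% (77.5 to 82.5%) of 1014 one-directional promoter peaks were upstream with a median of −173.5 bp, and in replicate 2 73.9% (71.2 to 76.5%) of 1104 were, with a median of −136.5 bp. The band between 100 and 300 bp upstream held 428 members (40.5%), the 100 bp on either side of the TSS held 307 (29.0%), and 100 members (9.45%) lay more than 100 bp downstream. Head-to-head summits had a median of −69 bp and 59.4% of them lay within 100 bp of the nearest TSS. A summit between a head-to-head pair is always assigned to the nearer TSS, so the spacing of the pair caps its upstream distance, and the positions in the 2 kinds of promoter are not measured over equal ranges.

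**Figure D2:**
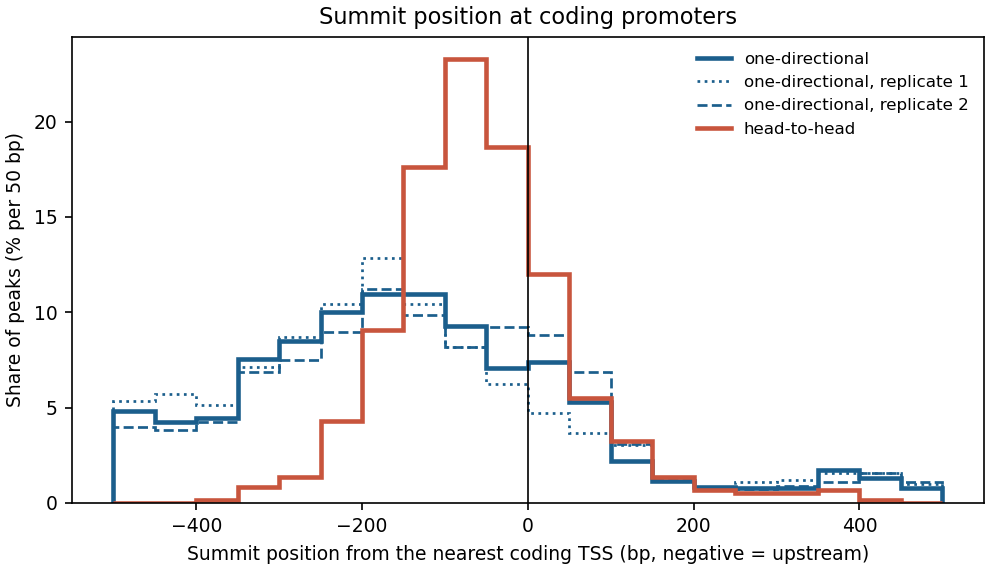
Share of summits in each 50 bp bin of position from the nearest coding TSS (bp, negative upstream) for one-directional promoter peaks in the IDR list and in each replicate, and for head-to-head peaks in the IDR list. One-directional summits spread over the upstream side around their median of −153 bp, while head-to-head summits gather next to the TSS around −69 bp.

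Position moved with strength. Ranked by signal in 4 equal groups from weakest to strongest, the median position was −93, −119, −173 and −200 bp. The upstream share was 69.8% (63.9 to 75.3%) in the weakest group and 88.6% (84.2 to 92.2%) in the strongest, and the share within 100 bp of the TSS was 40.8% and 15.2%. The same order of the weakest and strongest groups appeared in each library alone. In replicate 1 the medians were −110.5 and −207 bp, and in replicate 2 they were −61 and −183.5 bp. Read by position, the median signal in the IDR list was 247 in summits between 200 and 300 bp upstream, 228.5 between 100 and 200 bp, 174 at 1 to 100 bp upstream and 161 at 0 to 100 bp downstream. Head-to-head peaks shifted less, from a median of −48.5 bp in their weakest group to −89.5 bp in their strongest, within the shorter range that their spacing allows.

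**Figure D3:**
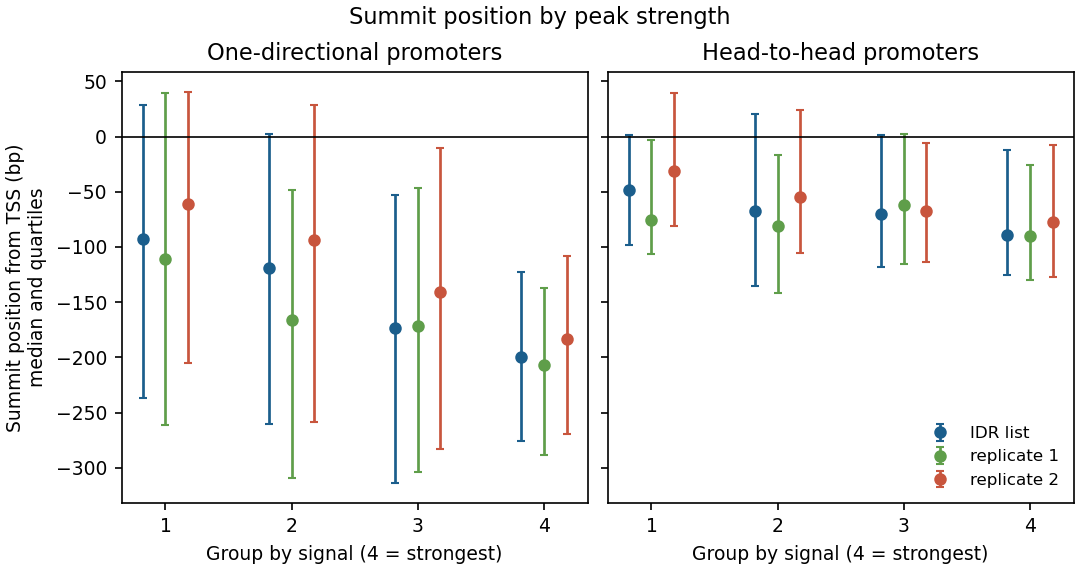
Median summit position (bp from the nearest coding TSS, bars show quartiles) in each of 4 groups by signal, for one-directional (left) and head-to-head (right) promoter peaks in the IDR list and each replicate. In all 3 lists the strongest one-directional group lies farther upstream, near −200 bp, than the weakest.

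The replicates differed most next to the TSS. Among members with a peak in both relaxed lists, the ratio of replicate 2 to replicate 1 signal had a median of 1.20, a level that depends on how each list was scaled. It was 1.07 (quartiles 0.944 and 1.31) for summits between 300 and 500 bp upstream, 1.10 between 200 and 300 bp and 1.14 between 100 and 200 bp. It was 1.36 (1.10 to 1.76) at 1 to 100 bp upstream and 1.55 (1.23 to 2.05) at 0 to 100 bp downstream, where 106 of 120 members had the higher value in replicate 2. Between 100 and 500 bp downstream it was 1.25. Accordingly, the strongest 4278 peaks of replicate 2 held 366 one-directional summits within 100 bp of a TSS (33.2%) and those of replicate 1 held 231 (22.8%). With 1 library each, these are differences between libraries.

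The annotation at the summit was intergenic for 412 members (38.9%), an intron of the named gene for 348 (32.9%) and its 5' UTR for 206 (19.5%). The summit lay in an intron of another gene for 53 members, in an exon of another gene for 35 and in coding sequence of the named gene for 4. Of the 234 members at or downstream of the TSS, 167 (71.4%) lay in the 5' UTR. A summit in an intron of the gene itself, found for 285 of the 824 upstream members (34.6%), marks an inner promoter downstream of another start of the same gene. Among genes with several coding TSSs, 225 of 631 bound TSSs (35.7%, 31.9 to 39.5%) were the most upstream one, beside 1948 of 5890 unbound TSSs (33.1%, 31.9 to 34.3%).

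By definition no member TSS had a divergent coding partner, but a non-coding gene could take that place. A non-coding TSS lay on the opposite strand within 1000 bp upstream of 61 of 1002 bound TSSs (6.09%, 4.69 to 7.75%) and of 521 of 12214 unbound one-directional TSSs (4.27%, 3.91 to 4.64%). Bound TSSs lay inside the body of another coding gene in 12.4% of cases (10.4 to 14.6%) and unbound ones in 17.0% (16.3 to 17.6%). A coding gene on the same strand ended within 1000 bp upstream of 25.5% (22.9 to 28.4%) of bound and 28.2% (27.4 to 29.0%) of unbound TSSs.

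Of the 9654 genes with a one-directional coding TSS, 930 were bound, that is 9.63% (9.05 to 10.2%). This share is the background for the counts of one-directional genes below. It was 9.25% with the strongest peaks of replicate 1 and 10.1% with those of replicate 2. Of 5052 genes with a head-to-head TSS, 572 (11.3%, 10.5 to 12.2%) were bound there. On the chromosome arms the share ran from 8.88% on 3R to 10.5% on X, and the small chromosome 4 had 7 of 66 genes (10.6%, 4.37 to 20.6%), with overlapping intervals.

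Bound genes were longer and had more starts. Their median length was 6625 bp, against 2121 bp for unbound one-directional genes. The bound share was 5.46% (4.93 to 6.03%) for genes with 1 coding TSS, 14.2% (12.7 to 15.9%) with 2, 25.4% (22.5 to 28.5%) with 3 to 4 and 44.1% (36.9 to 51.6%) with 5 or more. Each further TSS adds another place in which a peak can be counted, so these shares are not per promoter. Among genes with a single coding TSS, length still went with binding. The share was 3.33% (2.79 to 3.94%) up to 2000 bp, 6.35% (5.23 to 7.63%) from there to 5000 bp, 11.3% (9.27 to 13.6%) to 20000 bp and 11.3% (8.07 to 15.2%) beyond.

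Of the 930 bound genes, 819 had 1 member peak and 111 had 2 or more. Ptpmeg2, a tyrosine phosphatase gene with 6 coding TSSs over 32852 bp, had 5 members at 5 of them. The signals ran from 126.7 to 656, and 3 of the 5 summits lay 163 to 196 bp upstream. dnc, the cAMP phosphodiesterase gene, had 4 members at 4 of its 9 TSSs with signals of 127.6 to 571. SNF4Agamma, a subunit of AMP-activated kinase, and the supervillin homolog Svil had 4 members at 3 TSSs each, the strongest at 306 and 229. Rtnl1, 1 of 8 genes with 3 members, had them at 3 of its 7 TSSs.

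Peaks inside the gene, more than 1000 bp from any coding TSS, went together with promoter peaks. Of bound genes, 230 of 930 (24.7%) had such an inner peak, against 481 (5.51%) of the unbound genes. The comparison held among genes with 1 coding TSS and similar length, and when the promoter peak and the inner peak came from different libraries. For genes of 5000 to 20000 bp, with promoters called in replicate 1 and inner peaks in replicate 2, 21 of 95 bound genes (22.1%, 14.2 to 31.8%) and 77 of 762 unbound genes (10.1%, 8.06 to 12.5%) had one. With the libraries exchanged, 25 of 97 (25.8%, 17.4 to 35.7%) and 77 of 760 (10.1%, 8.08 to 12.5%) did. For genes over 20000 bp, the shares were 22 of 34 (64.7%, 46.5 to 80.3%) and 67 of 294 (22.8%, 18.1 to 28.0%), and after the exchange 30 of 41 (73.2%, 57.1 to 85.8%) and 67 of 287 (23.3%, 18.6 to 28.7%). Both libraries share one control.

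**Figure D4:**
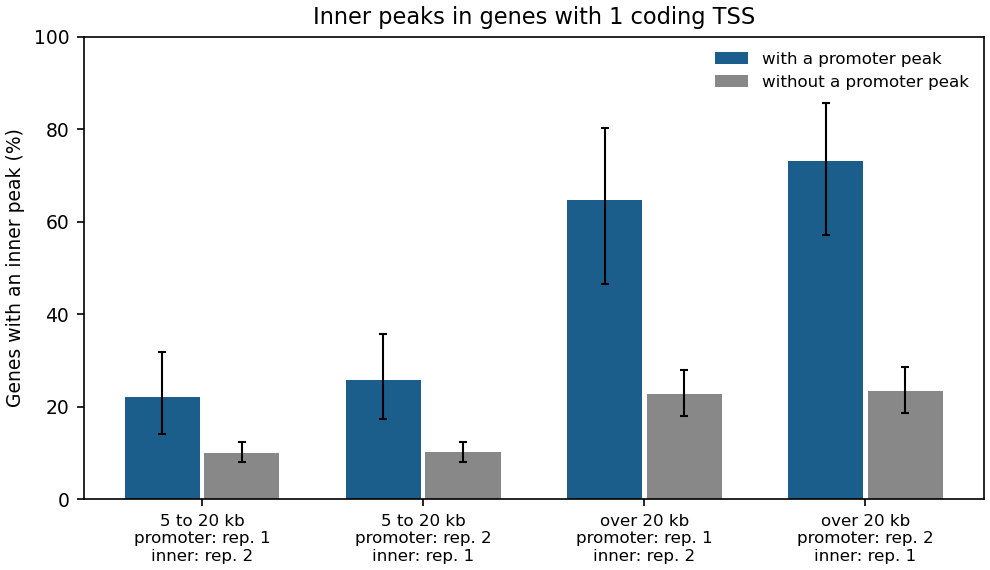
Percentage of genes with 1 coding TSS that have an inner peak more than 1000 bp from any coding TSS, with and without a one-directional promoter peak, by gene length; promoter and inner peaks come from different replicates, and bars show exact binomial 95% intervals. In all 4 pairs the genes with a promoter peak have the higher share, from 22.1 against 10.1% to 73.2 against 23.3%.

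Of 23 lists of genes with related roles, 17 had a bound share above 9.63%, and the intervals of many were wide. The 9.63% was not matched to any list by gene length or number of TSSs. The bound share differed with both, for example 5.46% with 1 coding TSS and 44.1% with 5 or more. The cytoplasmic ribosomal proteins stood highest, with 23 of the 38 genes that have a one-directional TSS bound (60.5%, 43.4 to 76.0%). Replicate 1 gave 19 of 38 and replicate 2 gave 23 of 38. When a summit within 500 bp of any coding TSS of the gene counted, 28 of the 38 were bound (73.7%), beside 11.2% of all one-directional genes. Of the 48 ribosomal protein genes with head-to-head TSSs only, 41 were bound (85.4%, 72.2 to 93.9%), beside 11.3% of all genes with a head-to-head TSS. RpS4 had the strongest of these members with a signal of 565, and 214 in replicate 1 and 366 in replicate 2. RpL22 had 540, 206 and 334 in the same order of lists, RpL24 had 496, 210 and 283, and RpL30 had 490, 195 and 312. All 4 were higher in replicate 2, as were 16 of the 18 ribosomal protein members found in both relaxed lists. This was common next to the TSS. Of all members in both lists, 128 of 151 at 1 to 100 bp upstream and 106 of 120 at 0 to 100 bp downstream were higher in replicate 2.

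All 23 ribosomal protein summits lay within 100 bp of the TSS, from −73 to 78 bp with a median of −11 bp. The medians were −8.5 bp in replicate 1 and −1 bp in replicate 2. The other 1035 members had a median of −158 bp. The ribosomal protein members had a median signal of 304 (range 131.8 to 565), against 163 for the 284 other members within 100 bp of a TSS. Thus their median signal was above that of the remaining summits next to the TSS, though their range reached below it. Their position was not theirs alone among strong peaks. In the strongest of the 4 groups by signal, 40 of 264 summits (15.2%) lay within 100 bp of the TSS. These 40 included ribosomal protein members and others such as CG14100 (1891 at −92 bp). Genes for ribosomal proteins are small and among the most highly transcribed, and transcription was not measured here.

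Genes of translation beyond the ribosome were bound less uniformly. Of the translation factors, 5 of 31 (16.1%, 5.45 to 33.7%) were bound. eIF6 had a signal of 676 at −103 bp, and the elongation factor genes eEF1gamma (622), eEF2 (282) and eEF1alpha1 (254) had summits 13 to 22 bp upstream. The list for nucleolar and ribosome biogenesis genes had 3 of 8 bound (37.5%, 8.52 to 75.5%), namely NHP2 (244), bel (166) and nop5 (165). Its membership was set by hand, and the role of each gene was not checked. Of the aminoacyl-tRNA synthetases 1 of 4 was bound, AlaRS at 121. The lists of mitochondrial ribosomal protein and respiratory chain genes had none bound at a one-directional TSS in the IDR list. Other genes for mitochondrial proteins were not counted as a list. The counts were 0 of 15 mitochondrial ribosomal protein genes, an exact interval that reaches 21.8%, and 0 of 42 respiratory chain genes, reaching 8.41%. In replicate 2 alone 1 of those 42 was bound. Among genes with head-to-head TSSs only, 7 of 58 mitochondrial ribosomal protein genes and 3 of 38 respiratory chain genes were bound. Over all genes with a head-to-head TSS, 572 of 5052 (11.3%) were.

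Stress and signalling lists held high shares in few genes. Heat shock genes had 5 of 10 bound (50%, 18.7 to 81.3%), with 4 in replicate 1 and 3 in replicate 2. Hsp27 had a signal of 974 (504 in replicate 1 and 477 in replicate 2) at −164 bp, the endoplasmic reticulum chaperone gene Hsc70-3 had 323, Hsp26 had 275 and the co-chaperone gene stv (starvin) had 234. In the Notch pathway 6 of 13 genes were bound (46.2%, 19.2 to 74.9%). These included the corepressor gene gro (598; 282 and 304 in replicates 1 and 2), the Notch inhibitor gene numb (539; 257 and 278), the ubiquitin ligase gene neur (255) and the receptor gene N (207). In receptor tyrosine kinase, JAK-STAT and Hippo signalling 9 of 20 were bound (45.0%, 23.1 to 68.5%). The EGF receptor inhibitor aos had 474, the EGF ligand spi had 470, the transcription factor Stat92E had 458 (205 and 258 in replicates 1 and 2) and the Hippo regulator ex had 321. For aos and ex no peak of either relaxed list overlapped reciprocally over 50% of the length, which was also so for eEF1alpha1 and Hsp26 and, among genes named below, for nkd, cact, Tm1, sqh and Dp.

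Of the 4 lists of embryonic patterning genes, 3 lay above 9.63% and 1 below. Among 17 gap and pair-rule genes, 1 carried a peak (5.88%, 0.149 to 28.7%), the maternal gene bcd (220) that is counted in this list. Of the Hox genes 1 of 8 was bound, Dfd at 131, and none with replicate 2 alone. Segment polarity, Wnt and Hedgehog genes had 3 of 16 bound, namely the Wnt co-receptor gene arr (289), nkd (220), an inhibitor of Wnt signalling, and the T-box gene mid (122). Dorsoventral and Dpp pathway genes had 3 of 18, namely the Dorsal inhibitor cact (295), shn (264), a nuclear factor of the Dpp response, and ush (202), a cofactor of GATA factors. Each of these intervals included 9.63%.

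Among genes of differentiated tissues, 1 of 21 neural genes was bound (4.76%, 0.120 to 23.8%). It was elav, which encodes an RNA-binding protein of neurons, and its peak was strong, at 833 (398 in replicate 1 and 439 in replicate 2), 259 bp upstream. Muscle and mesoderm genes had 4 of 19 bound, with the heart factor gene tin at 442, the titin-like gene sls at 360, the tropomyosin gene Tm1 at 286 and the muscle actin gene Act87E at 169. Of the 154 chemosensory receptor genes with a one-directional TSS none was bound in any of the 3 lists. The exact interval of that share reaches 2.37%, below 9.63%. It is also below the 3.33% (2.79 to 3.94%) of genes with 1 coding TSS up to 2000 bp. The receptor genes were not matched to either background by length or number of TSSs. Such receptors serve sensory neurons, and a link of binding with expression was not tested.

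Actin, tubulin and cell junction genes had 6 of 17 bound (35.3%, 14.2 to 61.7%). The strongest were at Moe, encoding a linker of actin to membranes (328), the myosin light chain gene sqh (327), the polarity gene sdt (304) and the cytoplasmic actin gene Act5C (190). Ecdysone response genes had 4 of 14 bound, the nuclear receptor genes Eip75B (340), Hr78 (275) and Hr4 (164) and the kinase gene Eip63E (208). Cell cycle and DNA replication genes had 4 of 18, namely CycE (378), Dp (324), E2f1 (132) and fzr (126), in which Dp and E2f1 encode partners of one transcription factor that acts on CycE.

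Genes for chromatin and promoter proteins were bound in part. Insulator and promoter-binding protein genes had 3 of 11 bound, the GAGA factor gene Trl (286), BEAF-32 (162) and CTCF (130). Polycomb and trithorax group genes had 4 of 16, namely ph-p, the demethylase gene Utx (149), ph-d and Psc (127.8). General transcription and Mediator genes had 3 of 23, Taf4 (230), MED4 (172) and Trf2 (126). The proteasome genes had 1 of 26, Rpn11 at 141. Using each replicate alone moved 3 lists (replicate 1) and 1 list (replicate 2) to the other side of the respective background share.

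**Figure D5:**
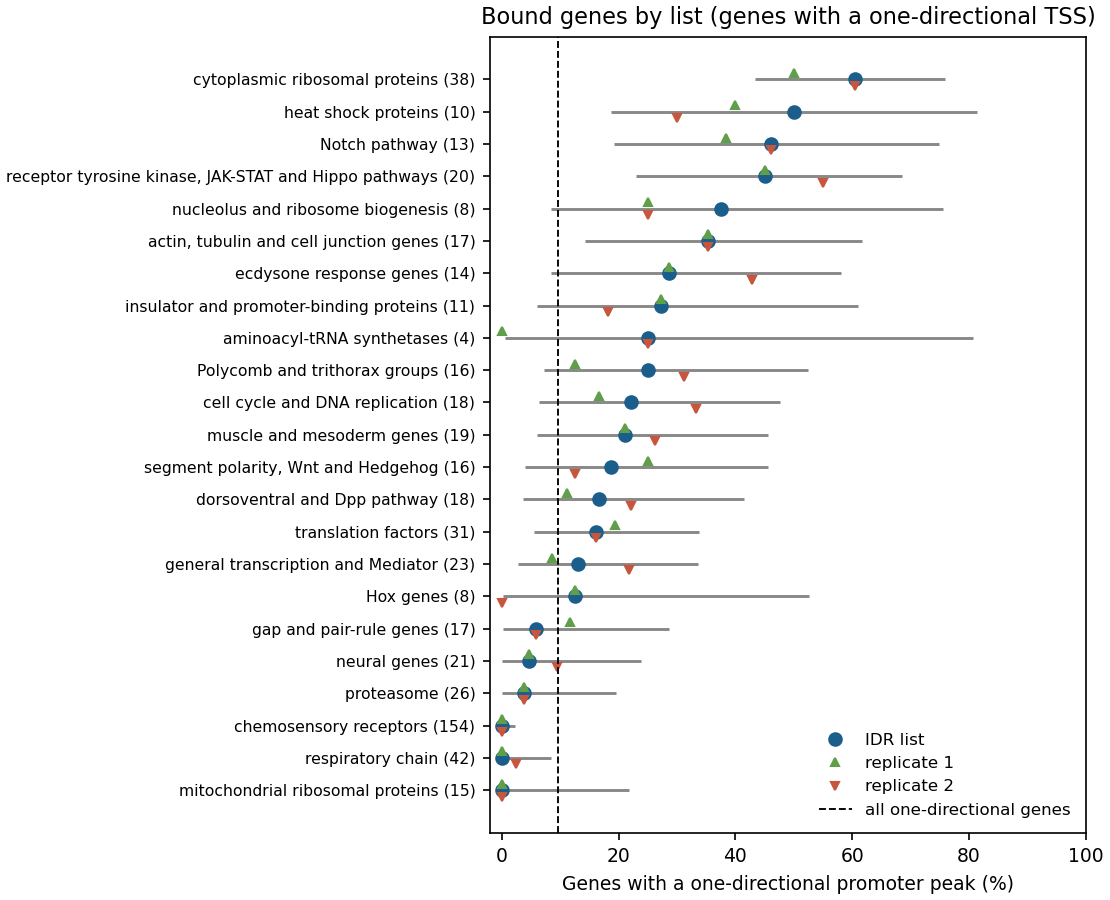
Percentage of genes with a one-directional TSS that carry a member peak, for 23 gene lists (number of such genes in brackets); circles and grey lines show the IDR list with exact binomial 95% intervals, triangles the strongest 4278 peaks of each replicate, and the dashed line the 9.63% of all one-directional genes. Ribosomal proteins stand highest at 60.5%, and 3 lists including chemosensory receptors stand at 0.

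The base composition of the member windows moved with signal and position. Within 50 bp on either side of the summit, GC content was 36.7% on average, against 34.9% at head-to-head peaks, 34.5% at the other peaks and 39.0% in windows of 11508 unbound one-directional TSSs taken at the members' median offset of −153 bp. From the weakest to the strongest group it was 40.7, 38.2, 35.3 and 32.5%. GC content also depends on the distance from the TSS, and was 44.5% for summits 0 to 100 bp downstream and 32.0% for those between 200 and 300 bp upstream. Within each of the 6 position bands the stronger members had the lower GC content. Between 100 and 200 bp upstream it was 30.6% in the stronger and 37.2% in the weaker members, and at 1 to 100 bp upstream 41.6 and 43.2%. The composition of the control is not analysed here.

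Of 25 short motifs searched on both strands as exact letters, none was common to the members. The 5 with the largest excess over the unbound windows were the TATA box (TATAAA), the initiator (TCAGT), the BEAF site (CGATA), motif 7 (CATCNCTA) and the homeodomain site (TAATTA). The TATA letters stood in 203 member windows (19.2%, 16.9 to 21.7%), in 16.0% (15.4 to 16.7%) of the unbound windows and in 25.3% of head-to-head windows. They stood in 14.0% of the weakest and 25.8% of the strongest group of members, alongside the fall in GC content. Their median position was −197.5 bp from the TSS, whereas the TATA box of a core promoter stands just upstream of the TSS. Only letters within 50 bp of a summit were counted, so this position largely follows that of the summits. The initiator letters stood in 18.4% of member and 16.0% of unbound windows, the BEAF site in 14.7 and 13.1%, motif 7 in 1.51 and 0.591%, and the homeodomain letters in 8.70 and 7.78%. Lower shares in members of similar size were those of GAGA, given below, and of the Pho site (GCCAT), with 14.7% of member (12.7 to 17.0%) and 16.1% of unbound windows (15.5 to 16.8%).

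The long words of the DRE and motif 1 were rare, and the shorter GAGA word was not. Shorter words occur more often in any sequence, so shares are compared between windows and not between motifs. The DRE (TATCGATA) stood in 13 member windows (1.23%, 0.656 to 2.09%), in 0.652% of unbound windows and in 4.97% (3.35 to 7.05%) of head-to-head windows, and it contains the BEAF site. Motif 1 (GGTCACACT) stood in 10 member windows (0.945%, 0.454 to 1.73%), in 0.191% (0.120 to 0.289%) of unbound and in 1.71% of head-to-head windows. GAGA (GAGAG) stood in 14.2% of member windows (12.1 to 16.4%), 15.6% of unbound windows and 6.51% (4.65 to 8.82%) of head-to-head windows. The longer GAGAGAG stood in 3.02% of member, 3.49% of unbound and 0.342% of head-to-head windows. The choice of background window mattered for most of these: centred on the TSS, unbound windows held the TATA box in 17.6%, the initiator in 35.9%, the DRE in 2.46% and motif 1 in 2.09% of cases, and the sign of the difference changed for 12 of the 25 motifs. The TCT element (TCTTTTNC) stood in 2.93% of member windows. It stood in 2.09% of unbound windows at −153 bp and 1.68% of those centred on the TSS.

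The 10 words of 8 letters with the largest excess were chosen on these windows and are given as a description. Of these, 8 consist of A and T alone, from ATTTAAAA (6.71% of member and 4.26% of unbound windows) and TAAATAAA (6.90 and 4.48%) to TATTTTAA (4.54 and 2.90%). ATTTAAAA stood in 3.40% of the weakest and 10.6% of the strongest group. The others were AACAAACA, in 3.31% of member and 1.55% of unbound windows, and TCAGTGCA, in 22 member windows (2.08%, 1.31 to 3.13%) and 0.348% (0.248 to 0.473%) of unbound windows. TCAGTGCA contains the initiator letters. Members that held it had a median signal of 166 and those without it 199, and it stood in 1.18% of replicate 1 and 1.45% of replicate 2 one-directional windows. It stood in 43 windows (1.63%) of the other peaks and in 0.342% of head-to-head windows, so its excess was not limited to one-directional promoters.

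Signals overlapped on either side of the rule's limits. The members nearest the 500 bp limit were hebe (498 bp, signal 199), RapGAP1 (497 bp, 377) and CG10479 (496 bp, 673). The summits just beyond it were nearest to CG5854 (501 bp, 278), CG43736 (501 bp, 472) and SERCA (502 bp, 226). Of these, the CG5854 TSS has an opposite coding TSS 382 bp upstream, so it is head-to-head. Members whose opposite-strand coding TSS was just too far to count as a partner were CG11961 (1007 bp, signal 125), CG9992 (1012 bp, 233) and Eno (1015 bp, 654). Just inside the limit, and so counted as head-to-head, were RpS7 (1000 bp, 242), bsk (995 bp, 147) and Gnpat (994 bp, 131). CG2875 itself, on the minus strand of X at 3571456 to 3573622, has no one-directional TSS. The nearest IDR summit lay 7865 bp from its TSS, assigned to AstA-R1 with a signal of 131.7.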

How the data were processed

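Peak lists on dm6 were used as deposited. Per the deposited file records, one control alignment served both replicates. The sources used here name neither the aligner nor the caller, and the IDR threshold is likewise not given. The signal and the −log10 q value of each peak are the authors' deposited values. The −log10 q took 1 distinct value in the IDR list and was not used for ranking. Each relaxed replicate list holds 30000 peaks; read depth is unknown. Per the labels, chromatin was sonicated to 200 to 800 bp.

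TSSs were the 5′ ends of protein-coding transcripts in Ensembl release 115, and arm lengths of the Release 6 sequence were checked against the files. The summit was the peak start plus the deposited offset. A gene was bound if a member had one of its TSSs nearest. Replicate lists were cut to their strongest 4278 peaks, and peaks matched with 50% reciprocal overlap. Motifs were counted within 50 bp on either side of the summit, and background TSSs lay over 1000 bp from every summit. With 2 libraries of 1 group no test between kinds of promoter was made. Intervals are exact (Clopper-Pearson) at 95% over peaks or genes, which are not replicates, and cover counting error only. The members and lists were chosen with earlier results of these data known, and the position bands and the exchange of libraries for inner peaks were added after values were seen. Named genes were the 20 strongest members, the 4 strongest per list, those at the rule's limits and the 5 genes with most members. The last of these 5, Rtnl1, had the strongest peak among 8 genes tied at 3 members. Of the listed symbols, Z4, calypso, Dl and phm were not matched. The classification was tested on simulated data. Python 3.11.15, pandas 2.3.3 and scipy 1.17.1 were used. Alternatives were other distances, other definitions of head-to-head, the stronger 50% of peaks, other windows and each replicate alone.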

Additional observations from a re-analysis of the deposited data

How the results depend on the processing

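Under the stronger 50% of IDR peaks the set held 559 members, with 5.36% of genes bound, 84.1% of summits upstream, a median position of −180 bp, a signal ratio to head-to-head peaks of 1.06 and 70.3% of members in both replicates. Within 250 bp of a TSS it held 689 members, with 6.76% of genes bound, a median position of −97 bp and a signal ratio of 0.965. Within 1000 bp, 11.9% of genes were bound, 73.4% of summits lay upstream and the signal ratio was 0.994. With head-to-head set at 500 bp the signal ratio was 0.964. An overlap of 1 bp put 77.4% of members in both replicates. Leaving out a replicate gave signal ratios of 1.04 to 1.05, 1014 to 1104 members, 9.25 to 10.1% of genes bound, 73.9 to 80.1% upstream and medians of −173.5 to −136.5 bp. Head-to-head set at 2000 bp, by TSSs of any biotype, or 1 peak per repeated interval gave 900, 993 and 1053 members, and moved none of the other 5 measures by more than its spread. The sign of the motif differences from unbound promoters changed for 3 of 25 motifs when windows reached 25 bp on each side, 8 when they reached 100 bp and 12 with the background at the TSS. No paired analysis was possible because there is only 1 group. Signal is not comparable between lists, read depth is unknown and 2 libraries lie behind every peak, so intervals over peaks understate the uncertainty.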

Other observations

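The position of a summit, its signal, the GC content under it and the balance between the replicates moved together. Summits 0 to 100 bp downstream of the TSS had the lowest median signal (161), the highest GC content (44.5%) and the highest ratio of replicate 2 to replicate 1 signal (1.55). Summits between 200 and 300 bp upstream had the highest median signal (247), the lowest GC content (32.0%) and a ratio of 1.10. Ribosomal protein members had the ratio of other summits next to the TSS (1.51, against 1.46 for 253 other members within 100 bp) with a median signal of 304. The part of each library in these values was not tested.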
